A study of Mus musculus with 7 samples.

Results

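The Kruppel-like factors Klf2, Klf3, Klf4, Klf5, Klf6, Klf7, Klf9, Klf10 and Klf13, were followed by mouse and cell type in single-cell RNA of the mammary gland. Members were the 9 rows carrying these symbols among the 27998 genes of the deposited count matrix, and all 9 were present. The series holds 7 female mice, all nulliparous and of a mixed background of FVB, 129 and C57BL/6J, of which 3 were Young (3 to 4 months) and 4 were Aged (13 to 14 months). The abdominal glands of each mouse, with lymph nodes removed, were dissociated with collagenase and hyaluronidase and captured without sorting in 1 droplet library per mouse. The labels name no treatment and no transgene, and each group is a set of single animals without pooling.

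Kruppel-like factors are transcription factors that bind GC-rich and CACCC-type DNA through zinc fingers at the carboxyl end, and that activate or repress through different partner proteins at the amino end. Klf2 and Klf4 are known for the quiet, flow-adapted state of endothelium, and Klf4 also for barrier epithelia. Klf5 is known from proliferating epithelium, Klf6 and Klf10 as genes switched on early by injury and by transforming growth factor beta, Klf3 as a repressor acting with C-terminal binding proteins, Klf9 and Klf13 as repressors acting with Sin3a, Klf9 also as a target of glucocorticoid and thyroid hormone, and Klf7 from neurons and fat cells.

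The libraries held 1264 to 2865 cells and 6652599 to 16999625 unique molecular identifiers (UMIs, counts of single captured molecules), with a median of 4758.5 to 7109.5 UMIs per cell. The 13 cell types were used as named by the study. Over the 8 types tested and the lymphatic endothelial cells, each defining marker fixed for the type was detected, with its lowest mean at 40.2 CPM (UMIs of a gene scaled to a common library total) for Esr1 in hormone-sensing luminal cells. Cells labelled pericyte also carried the endothelial markers Pecam1, Cdh5 and Sox17, summing to 1246 to 1365 CPM in young and 547.5 to 857.7 CPM in aged mice, against 1624 to 1853 and 1133 to 1329 CPM in vascular endothelial cells. All 6372 young cells carry barcodes split into 2 stretches of 8 bases and all 7312 aged cells an unbroken one of 16. Age and the handling of the libraries therefore cannot be told apart. Over the 21 pairs of mice 101 barcodes recurred, 57 of them between a young and an aged mouse. In a library summed by type, fewer expressing cells and less RNA per cell cannot be told apart from the sum alone, and shares of cells are given for this reason where they bear on a change.

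The windows before the start of transcription are shown for Klf2 and Klf4, which fell together in fibroblasts, and for Klf9, which rose in vascular endothelial cells. RefSeq promoter windows on GRCm38.p6 were matched by symbol for 7 of the 9 members, and the 250 bases before the start were searched on both strands. Capitals mark TGACG (the core of a cyclic AMP response element), TATAA, and TGANTCA (the AP-1 site).
Klf2, chr8:72318812-72319061, forward strand: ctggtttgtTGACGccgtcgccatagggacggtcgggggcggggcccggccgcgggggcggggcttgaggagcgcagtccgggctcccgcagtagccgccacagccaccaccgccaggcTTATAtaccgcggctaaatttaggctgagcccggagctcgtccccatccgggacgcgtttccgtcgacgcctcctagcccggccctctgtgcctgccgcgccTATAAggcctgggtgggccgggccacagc
Klf4, chr4:55532476-55532725, reverse strand: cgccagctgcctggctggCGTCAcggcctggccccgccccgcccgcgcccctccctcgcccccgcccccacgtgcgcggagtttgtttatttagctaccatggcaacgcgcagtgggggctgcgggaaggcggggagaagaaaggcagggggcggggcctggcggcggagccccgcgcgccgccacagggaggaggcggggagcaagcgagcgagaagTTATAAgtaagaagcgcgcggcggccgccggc
Klf9, chr19:23140976-23141225, forward strand: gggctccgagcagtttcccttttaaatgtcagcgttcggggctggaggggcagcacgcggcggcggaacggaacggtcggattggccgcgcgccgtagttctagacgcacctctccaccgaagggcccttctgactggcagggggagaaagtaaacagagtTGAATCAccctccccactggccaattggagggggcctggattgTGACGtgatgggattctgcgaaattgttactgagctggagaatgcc

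TATAA was matched in Klf2 and Klf4 alone of the 7 windows, and in 22.8% of all 32851 windows of the table. In Klf4 its 2 matches overlap as 1 place read on both strands. TGACG was matched once each in Klf2, Klf4, Klf9 and Klf13, against 17.8% of all windows. TGANTCA was matched in Klf9 alone, against 6.75% of all windows. The GC box GGGCGG was matched 6 times in Klf3, 4 times in Klf4, 3 times in Klf13, 2 times in Klf2 and 1 time each in Klf6 and Klf7, against 32.7% of windows with any match, and CACCC was matched in Klf2, Klf3, Klf7, Klf9 and Klf13, against 52.0%. These matches describe letters in the windows and are not binding sites. The Klf2, Klf3 and Klf6 windows run past the GENCODE starts of their genes at positions 72319033, 64803388 and 5861482. The Klf7 window, 64121390 to 64121639, lies inside its gene, which starts at 64122282 on the reverse strand.

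Levels across cell types were compared as CPM of the summed counts of each mouse and type, a 3-prime count that is not divided by gene length. They are a description without a test, since the study's cell types were themselves drawn from these genes. Each of the 9 genes had its own order of types, as plotted in the map of mean levels.

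**Figure D1:**
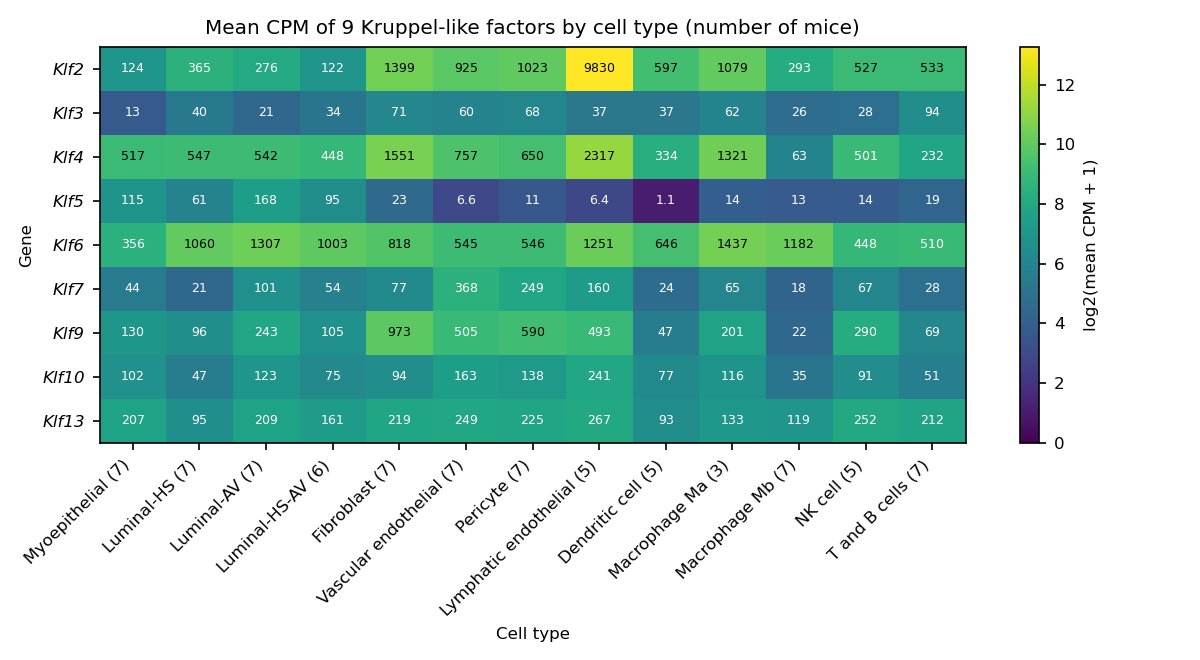
Mean CPM of each of the 9 genes (vertical axis) in each of the 13 cell types (horizontal axis, with the number of mice holding at least 3 cells of the type); colour gives log2 of the mean CPM plus 1 and the printed figure is the mean CPM. Klf2 reaches 9830 CPM in lymphatic endothelial cells, and Klf5 is high in the epithelial types alone.

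Klf2 (chromosome 8, 72319033 to 72321656) was led among the 8 tested types by fibroblasts at 1399 ± 1130 CPM (SD, n = 7), followed by pericytes at 1023 ± 219 and vascular endothelial cells at 925 ± 369 CPM. Fibroblasts were above pericytes in the 3 young mice and below them in the 4 aged mice, where fibroblasts had 379.9 to 575.8 CPM and pericytes 608.9 to 1125 CPM, so over aged mice alone pericytes led, and pericytes were above vascular endothelial cells in 6 of 7. The low end was myoepithelial cells at 124 ± 85.6 CPM, below AV (secretory alveolar) luminal cells at 276 ± 193 CPM in 7 of 7 mice. T and B cells, HS (hormone-sensing) luminal cells and Mb macrophages lay between, each above the next in 4 or 5 of 7 mice.

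Klf4 (chromosome 4, 55527143 to 55532466) was likewise led by fibroblasts, at 1551 ± 914 CPM (SD, n = 7), above vascular endothelial cells at 757 ± 141 CPM in 6 of 7 mice. Pericytes followed at 650 ± 153 CPM. The 3 epithelial types were near each other, with HS at 547 ± 182, AV at 542 ± 200 and myoepithelial cells at 517 ± 118 CPM, and neighbours in this order were higher in 3 or 4 of 7 mice. Mb macrophages were lowest at 63.2 ± 29.7 CPM, while Ma macrophages of the 3 young mice stood at 1321 ± 300 CPM.

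Klf5 (chromosome 14, 99298691 to 99315036), the member known from epithelium, had AV cells first at 168 ± 63.9 CPM (SD, n = 7), above myoepithelial cells at 115 ± 19.6 CPM in 6 of 7 mice. HS cells at 60.6 ± 12.1 CPM were below myoepithelial cells in 7 of 7 mice. A UMI of Klf5 was found in 52.2% of AV cells, 35.8% of myoepithelial and 30.9% of HS cells, at median depths of 6632, 4431 and 7277 UMIs. Stromal and immune types lay between 0.885% (dendritic cells, 4648 UMIs) and 5.74% (Ma macrophages, 4347 UMIs), and free RNA can give such UMIs to cells that lack a gene.

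Klf6 (chromosome 13, 5861482 to 5870394) was highest in AV cells at 1307 ± 365 CPM (SD, n = 7), above Mb macrophages at 1182 ± 739 CPM in 5 of 7 mice. Over aged mice alone, or without Young B, Mb macrophages led instead, with 786 to 2404 CPM in the aged mice on 3 to 9 cells each. HS cells followed in the mean at 1060 ± 307 CPM, but Mb macrophages were above them in only 2 of 7 mice. Fibroblasts at 818 ± 183 CPM were above pericytes at 546 ± 78.0 CPM in 7 of 7 mice. Myoepithelial cells were lowest at 357 ± 139 CPM, less than the 2 luminal types in the mean.

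Klf7 (chromosome 1, 64029447 to 64122282) separated the vascular compartment from the rest. Vascular endothelial cells had 368 ± 53.2 CPM and pericytes 249 ± 61.4 CPM (SD, n = 7 each), the former higher in 5 of 7 mice. Pericytes were above AV cells at 101 ± 44.8 CPM in 7 of 7 mice, and fibroblasts at 77.3 ± 15.0 CPM were above myoepithelial cells at 44.4 ± 14.4 CPM in 7 of 7.

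Klf9 (chromosome 19, 23141226 to 23168134) fell in a staircase from fibroblasts at 973 ± 382 CPM to pericytes at 590 ± 77.8, vascular endothelial cells at 505 ± 69.4 and AV cells at 243 ± 47.9 CPM (SD, n = 7). Fibroblasts were above pericytes, vascular endothelial above AV cells and AV above myoepithelial cells in 7 of 7 mice each, and pericytes above vascular endothelial cells in 5 of 7. Mb macrophages had 21.5 ± 20.7 CPM.

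Klf3 (chromosome 5, 64803388 to 64832901) ranged from 12.7 ± 3.60 CPM in myoepithelial cells to 94.2 ± 64.3 CPM in T and B cells, with fibroblasts at 70.7 ± 15.9, pericytes at 67.8 ± 24.5 and vascular endothelial cells at 59.7 ± 20.6 CPM in an order that 3 to 5 of 7 mice showed. The T and B cell lead rests on 4 to 19 cells per mouse. Klf10 (chromosome 15, 38291463 to 38300706) ranged from 34.8 ± 47.8 CPM in Mb macrophages to 163 ± 46.7 CPM in vascular endothelial cells, which were above pericytes in 6 of 7 mice. Klf13 (chromosome 7, 63886351 to 63938915) was the most even, between 94.7 ± 46.4 CPM in HS cells and 249 ± 30.9 CPM in vascular endothelial cells, with vascular endothelial cells, pericytes and fibroblasts each above the next in 4 of 7 mice.

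Summed over the 9 genes, fibroblasts held 5220 ± 1890 CPM, vascular endothelial cells 3580 ± 566, pericytes 3500 ± 409, AV cells 2990 ± 728, HS cells 2330 ± 657 and myoepithelial cells 1610 ± 267 CPM (SD, n = 7 each). The genes whose levels ran most alike over the 58 sums of at least 10 cells, among 4878 genes, are given as Pearson r of log2(CPM + 1), and sums of 1 mouse share a library. Klf2 ran most like Ifi203 (0.77), Mndal (0.74) and Ly6c1 (0.74), Klf4 like Fbxo30 (0.76), Plpp3 (0.76) and Rarg (0.73), and Klf9 like Plpp3 (0.85), Timp3 (0.84) and Gstt1 (0.83). Klf5 ran most like Apoc1 (0.81), Irx2 (0.79) and the epithelial adhesion gene Epcam (0.79), and Klf7 like Mef2a (0.81), Tnfaip1 (0.81) and Noct (0.80). For Klf3 they were Ypel5 (0.77), BC029722 (0.77) and Slc50a1 (0.74), for Klf6 Jund (0.68), Fam32a (0.64) and Pdrg1 (0.64), for Klf10 Mef2a (0.73), Cebpg (0.72) and Klf7 (0.71), and for Klf13 Tra2b (0.71), Pitpnc1 (0.69) and Ppp1cc (0.66). Among pairs of the 9 genes, Klf4 with Klf9 had the highest r at 0.72 and Klf2 with Klf5 the lowest at -0.61.

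The change with age was tested per cell type with edgeR's quasi-likelihood test on summed counts of each mouse, scaled by the trimmed mean of M-values (TMM), over all genes with enough counts by filterByExpr. Calls needed both an adjusted p (Benjamini-Hochberg) below 0.05 and a 1.5-fold difference or more, and levels beside these tests are TMM-scaled CPM. Of 72 pairs of a member and a type, 57 passed the filter and 9 were called, 6 higher and 3 lower in aged mice. All 9 members were tested in 5 types, 8 in pericytes (not Klf5), and Klf2 and Klf6 alone in T and B cells and in Mb macrophages. Over all genes, aged mice lay wholly above and wholly below the young for 1227 and 1177 of 6740 in myoepithelial cells. The counts were 921 and 895 of 8457 in HS, 1284 and 1169 of 11012 in AV, and 387 and 491 of 5513 in fibroblasts. They were 1450 and 1447 of 7864 in vascular endothelial cells and 333 and 292 of 2601 in pericytes.

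**Figure D2:**
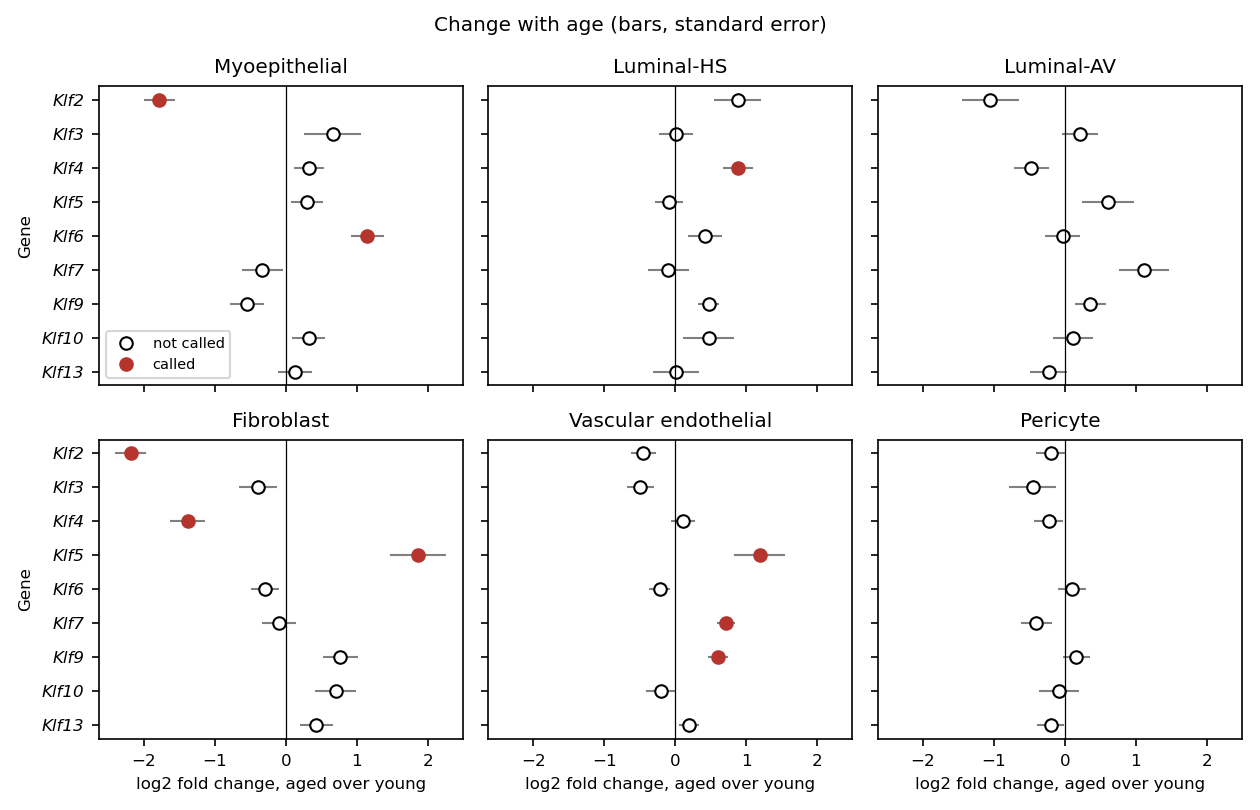
Fitted log2 fold change of aged over young mice (horizontal axis; bars, standard error) for each gene (vertical axis) in 6 cell types; filled points were called. Klf2 lies at -2.18 in fibroblasts and -1.78 in myoepithelial cells but near 0.88 in HS cells; Klf5 was not tested in pericytes.

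Fibroblasts, the collagen-making cells of the stroma, lost most of their Klf2 and Klf4 RNA. Klf2 stood at 2940, 2373 and 2402 CPM in Young A, B and C, and at 640.9, 605.4, 386.3 and 606.1 CPM in Aged A, B, C and D. The groups did not overlap, and the change was -2.18 ± 0.22 (log2 fold change ± SE), a 4.53-fold fall, with an adjusted p of 7.6e-05. Klf4 stood at 1694, 3062 and 2643 CPM in the young and at 892.2, 1205, 1004 and 676.8 CPM in the aged mice, again without overlap, a change of -1.38 ± 0.25 with an adjusted p of 0.0085. Without Young B the Klf4 change was -1.19 and its adjusted p 0.052. Lower calls made up 1.11% and higher calls 2.07% of the 5513 genes tested in fibroblasts, and of the 9 members 2 were lower and 1 higher.

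The shares of fibroblasts with a UMI, pooled over the mice of a group, moved the same way as the sums. Klf2 was found in 84.0% of young fibroblasts and 54.1% of aged ones, and after thinning of each cell to 2000 UMIs in 73.7% and 40.7%. Klf4 was found in 96.8% and 87.6%, and after thinning in 89.8% and 68.0%, at median depths of 4411 and 4446.5 UMIs. By mouse the Klf4 share overlapped before thinning, at 95.4% to 97.5% in young and 85.1% to 100% in aged mice. After thinning it was 87.8% to 90.9% and 58.8% to 80.0%. Both genes were detected in the same cell in 77.5% to 88.8% of fibroblasts of the young mice and in 46.3% to 64.7% of the aged mice. The fibroblast numbers were 581, 184 and 1034 in young and 121, 41, 15 and 17 in aged mice, so the aged sums rest on 524 UMIs of Klf2 and 809 of Klf4. Defining collagens Col1a1, Col1a2 and Col3a1 also differed, summing to 5231 to 8012 CPM in young and 3398 to 5195 CPM in aged fibroblasts, as did markers of other cell types. The endothelial Pecam1, Cdh5 and Sox17 summed to 21.4 to 90.6 CPM in young and 0 to 1.72 CPM in aged fibroblasts, with Cdh5 and Sox17 at 0 in the 4 aged mice, and the immune Ptprc, Cd74 and Lyz2 to 65.7 to 357.3 and 11.5 to 38.0 CPM. Of the immune genes the defining Ptprc made up 0 to 2.02 CPM in young and 0 to 25.3 CPM in aged fibroblasts, and the pericyte markers summed to 3.46 to 10.9 and 1.72 to 54.9 CPM. The part of these in the change of Klf2 and Klf4 was not tested.

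Klf5 was the 1 member higher in aged fibroblasts, from 10.7, 7.10 and 9.44 CPM in young to 28.8, 54.5, 38.6 and 20.2 CPM in aged mice. The groups did not overlap (1.86 ± 0.40, adjusted p = 0.022), but the level is low, with 81 UMIs in young and 29 in aged fibroblasts. A UMI was found in 3.61% of young and 11.3% of aged fibroblasts. The 9 epithelial markers (6 keratins and the AV genes Mfge8, Trf and Csn3) summed to 464.3 to 906.3 CPM in young and 645.7 to 2697 CPM in aged fibroblasts, none of them at 0 in either group, and their part in the Klf5 change was not tested. The call was lost without Young A (adjusted p = 0.053), Young B (0.098), Young C (0.098) or Aged B (0.078). Without Aged A the gene did not pass the filter on low counts and was not tested.

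The other members did not pass in fibroblasts. Klf9 stood at 695.9, 794.2 and 696.5 CPM in young and 1184, 1852, 1082 and 828.4 CPM in aged mice, without overlap but with an adjusted p of 0.12 (0.77 ± 0.25). Klf10 had a log2 fold change of 0.70 ± 0.29 (adjusted p = 0.20) and Klf13 of 0.43 ± 0.23 (0.32). Klf3, Klf6 and Klf7 had changes of -0.39 ± 0.27, -0.29 ± 0.20 and -0.10 ± 0.24.

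**Figure D3:**
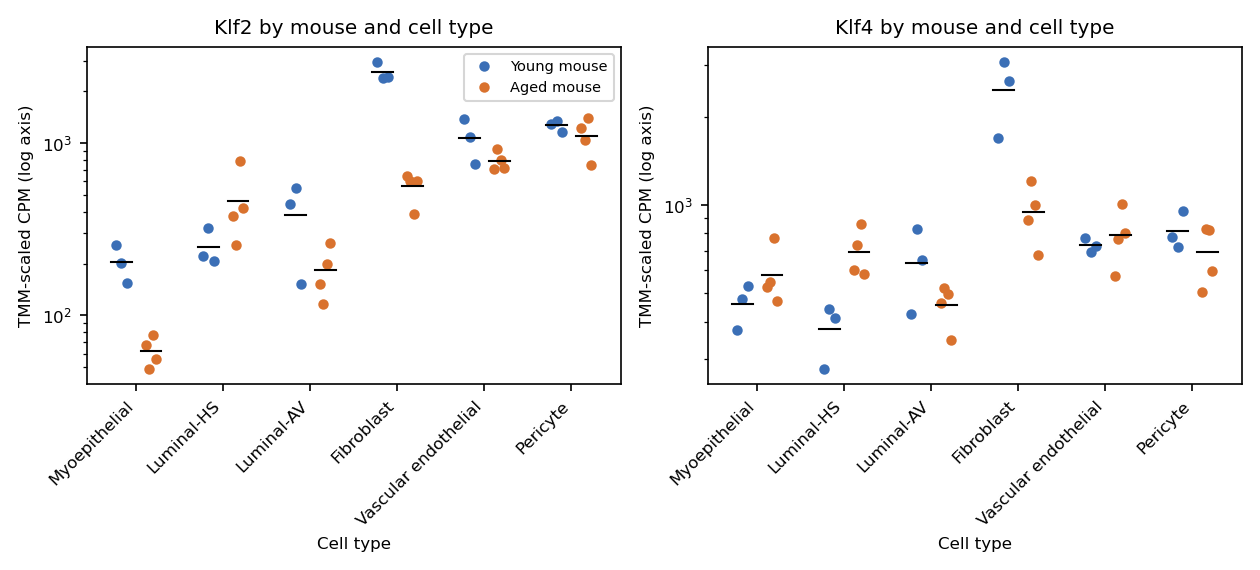
TMM-scaled CPM (vertical, log axis) of Klf2 (left) and Klf4 (right) in each young (blue) and aged (orange) mouse across 6 cell types; black lines are group means. Klf2 groups are apart in myoepithelial cells and fibroblasts, Klf4 groups in HS cells (aged higher) and fibroblasts (aged lower).

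Myoepithelial cells, the contractile basal layer, had lower Klf2 and higher Klf6 with age. Klf2 stood at 256.4, 201.8 and 155 CPM in the young and at 67.6, 49.2, 76.9 and 55.6 CPM in the aged mice, a 3.43-fold fall without overlap (-1.78 ± 0.22, adjusted p = 4.6e-05). Its share of cells was 42.3% in young and 15.0% in aged mice, and 25.3% and 7.63% after thinning. Klf6 rose from 194.7, 302.7 and 161.4 CPM to 437.2, 411.5, 566.9 and 499.5 CPM, 2.22-fold and without overlap (1.15 ± 0.23, adjusted p = 0.0014). Both calls held under each alternative and with each mouse left out.

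Calls were common in this type, 14.8% of 6740 genes lower and 12.8% higher, beside 1 of 9 members in each direction. The fibroblast collagens, which myoepithelial cells should lack, summed to 24.6 to 181.3 CPM in young and 1.54 to 23.9 CPM in aged myoepithelial cells, and the part of RNA from other cells in the Klf2 change was not tested. Klf9 had -0.55 ± 0.24 (adjusted p = 0.088) with overlapping groups, and the other 6 members had changes between -0.33 and 0.66 with adjusted p of 0.24 to 0.72.

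HS luminal cells, which carry the hormone receptors, had higher Klf4 with age, the opposite direction to fibroblasts. Klf4 stood at 277.4, 440.9 and 413.9 CPM in young and at 599.6, 732.4, 862.5 and 580.1 CPM in aged mice, without overlap (0.88 ± 0.21, 1.84-fold, adjusted p = 0.037). The call was lost without Young A (adjusted p = 0.13), Young B (0.071), Young C (0.11), Aged B (0.055), Aged C (0.082) or Aged D (0.055), with changes between 0.69 and 1.00, and with sums thinned to equal totals (0.054). Klf4 was found in 72.9% of young and 84.1% of aged HS cells, and after thinning in 43.0% and 57.7%.

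Klf2 had the same fitted change in HS cells, 0.88 ± 0.33, with an adjusted p of 0.13, and its aged values ran from 256.6 to 785.1 CPM against 208.2 to 320.1 CPM in young mice. Klf9 was above the young mice in every aged mouse, at 100.9 to 126 against 71.8 to 83.9 CPM (0.47 ± 0.15, adjusted p = 0.087). Of 8457 genes, 3.93% were higher and 2.33% lower, and of the 9 members 1 and 0. The DESeq2 Wald test also called 1 member, and 3 members had an unadjusted edgeR p under 0.05.

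AV luminal cells, the milk-producing lineage, gave no call of a member by edgeR, with 2 members at an unadjusted p under 0.05 and 1 call by DESeq2, beside 2.90% of 11012 genes higher and 3.26% lower. Klf7 stood at 38.8, 90.9 and 63.7 CPM in young and 165.5, 107.6, 183.3 and 82.0 CPM in aged mice, where Aged D fell within the young range (1.11 ± 0.35, adjusted p = 0.087). Klf2 stood at 442.8, 548.6 and 151.2 CPM in young and 152.1, 116.3, 198.1 and 263.7 CPM in aged mice, where Young C sat among the aged values (-1.05 ± 0.40, adjusted p = 0.14). Klf6, the member with the most UMIs here, had a change of -0.03 ± 0.25.

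Vascular endothelial cells had 3 members higher with age and none lower. Klf7 rose from 259.5, 277.2 and 301.7 CPM to 460.4, 443.5, 486.8 and 436.1 CPM, with narrow groups that did not overlap (0.71 ± 0.13, 1.64-fold, adjusted p = 0.0011), and kept its call under each alternative and with each mouse left out. Klf9 rose from 390.7, 362.4 and 456.8 CPM to 562.9, 554.2, 705 and 610.4 CPM (0.60 ± 0.14, adjusted p = 0.0073). At 1.51-fold it lies at the minimum, and it fell short of 1.5-fold without Young A (0.57), Young B (0.52) or Aged C (0.52). Klf5 rose from 4.54, 3.41 and 3.72 CPM to 12.1, 6.69, 8.92 and 9.81 CPM (1.19 ± 0.36, adjusted p = 0.023) on 21 and 41 UMIs, in 2.15% of young and 4.17% of aged cells, shares within those of the other non-epithelial types.

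The Klf5 call was lost without Young A (adjusted p = 0.055), Young B (0.10) or Young C (0.053), and without Aged A, Aged C or Aged D the gene was not tested for low counts. After thinning to 2000 UMIs the shares were 1.07% and 1.01%. The 9 epithelial markers summed to 715.9 to 973.1 CPM in young and 592.7 to 1072 CPM in aged vascular endothelial cells. The immune Ptprc, Cd74 and Lyz2 summed to 197.1 to 599 CPM in young and 618.8 to 8700 CPM in aged mice, of which the defining Ptprc made up 0 to 2.92 and 0 to 2.10 CPM. The 3 pericyte markers summed to 98.6 to 346.3 CPM in young and 5.59 to 66.9 CPM in aged mice, and the fibroblast collagens to 25.04 to 98.96 and 0.698 to 10.6 CPM. The part of these in the changes of Klf5, Klf7 and Klf9 was not tested. Here 14.7% of 7864 genes were higher and 12% lower in aged mice, beside 3 and 0 of the 9 members. By DESeq2, 2 members were called.

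The flow-related pair did not pass in vascular endothelial cells. Klf2 stood at 1377, 1084 and 752.3 CPM in young and 708.7, 917.5, 800.1 and 717.5 CPM in aged mice, with Young C inside the aged range (-0.45 ± 0.18, adjusted p = 0.085). Its share of cells after thinning was 74.1% in young and 46.2% in aged mice, while before thinning it was 87.7% and 68.3%. Klf4 had a change of 0.11 ± 0.17 (adjusted p = 0.66). Klf3 was below the young mice in every aged mouse, at 37.7 to 59.5 against 63.3 to 78.8 CPM, with an adjusted p of 0.066 (-0.49 ± 0.19).

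**Figure D4:**
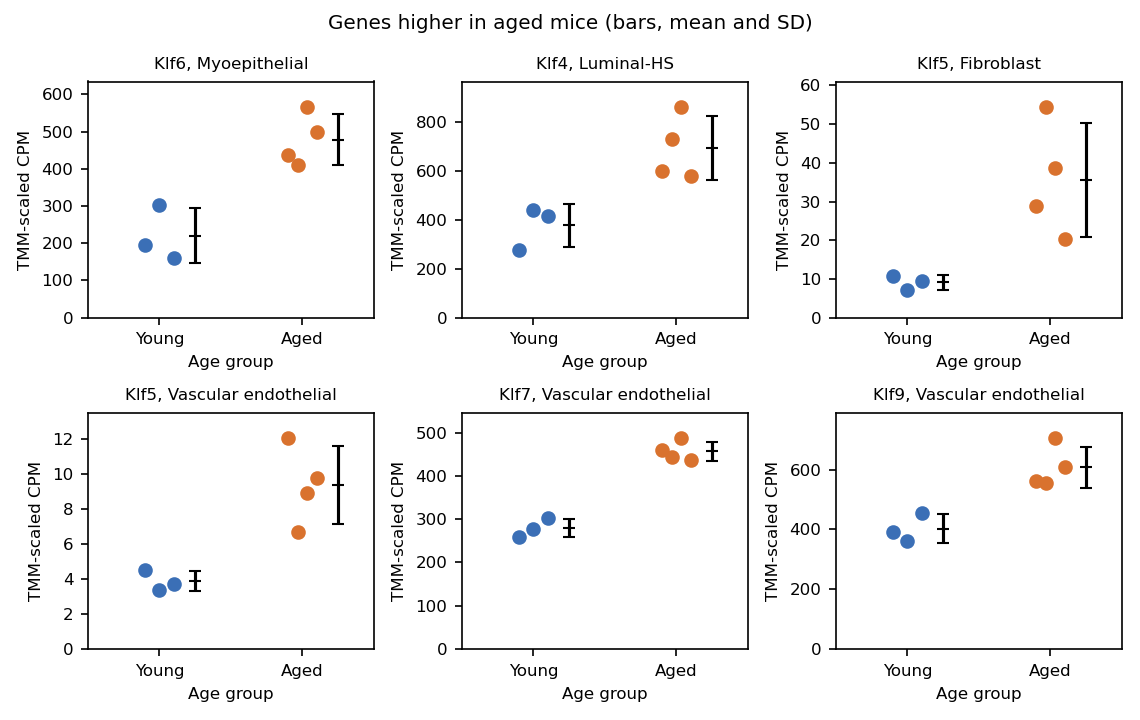
TMM-scaled CPM (vertical axis, from 0) of the 6 pairs of a gene and a cell type called higher in aged mice, for each young (blue) and aged (orange) mouse; black bars are the mean and SD. The groups do not overlap in any panel, but the panels were picked by calls on these same values. The 2 Klf5 panels have the lowest levels.

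Pericytes gave no call among 8 members by edgeR or by DESeq2, and 0 had an unadjusted p under 0.05, beside 7.19% of 2601 genes higher and 4.61% lower. The largest fitted changes were -0.45 ± 0.33 for Klf3 and -0.40 ± 0.22 for Klf7. Endothelial Pecam1, Cdh5 and Sox17 summed to 1246 to 1365 CPM in young and 547.5 to 857.7 CPM in aged pericytes. Their part in the Klf7 change was not tested. Klf13 was below the young mice in every aged mouse, at 228 to 258.2 against 267.7 to 288 CPM (-0.20 ± 0.19, adjusted p = 0.55). In Mb macrophages, with 3 to 90 cells per mouse, Klf6 stood at 181.7, 1135 and 811.2 CPM in young and at 894.8, 3281, 1765 and 2570 CPM in aged mice, overlapping (1.60 ± 0.63, adjusted p = 0.20).

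Klf2 in Mb macrophages had 1.51 ± 0.85 (adjusted p = 0.35). Neither was called by edgeR or DESeq2, 1 had an unadjusted p under 0.05, and 0.931% of 859 genes were higher and 0.233% lower. In T and B cells Klf2 had -0.45 ± 0.74 and Klf6 0.59 ± 0.51 (adjusted p = 0.78 and 0.58), with 0 calls by either tool and 0 at an unadjusted p under 0.05, beside 0.219% of 457 genes higher and 0.438% lower. The 9 epithelial markers summed to 295.7 to 5058 CPM in young and 2790 to 16010 CPM in aged T and B cells. Their part in these values was not tested.

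Whether the change with age differed among cell types was tested in 1 fit over 6 types with each mouse as a term. The change differed for 6 of the 9 members, beside 27.8% of 10643 genes. Klf4 (F = 21.9, adjusted p = 3.6e-08) and Klf2 (F = 15.2, adjusted p = 1.7e-06) led, followed by Klf7 (8.6e-05), Klf6 (0.00013), Klf5 (0.045) and Klf9 (0.046). Klf3 (0.064), Klf10 (0.37) and Klf13 (0.43) did not pass.

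Klf2 and Klf4 are counted among genes that respond within minutes to stimulation and to tissue dissociation, so 23 immediate early genes outside the family (Fos, Jun, Egr1 and others) were followed beside them. Their summed level overlapped between the ages in fibroblasts, at 25570 to 34330 CPM in young and 21900 to 44500 CPM in aged mice, and in myoepithelial cells, at 11660 to 15180 and 12010 to 16270 CPM. In vascular endothelial cells it was 24940 to 32450 against 21710 to 26100 CPM and in HS cells 16010 to 20190 against 19240 to 26680 CPM. Over single genes, 6 rose and 4 fell in myoepithelial cells, 5 and 0 in HS, 2 and 0 in AV, 3 and 1 in fibroblasts, 7 and 4 in vascular endothelial cells, and 6 and 1 in pericytes, of 21 or 22 tested in each. The shares over all genes were 12.8% higher and 14.8% lower in myoepithelial, 3.93% and 2.33% in HS, 2.90% and 3.26% in AV, 2.07% and 1.11% in fibroblasts, 14.7% and 12% in vascular endothelial cells, and 7.19% and 4.61% in pericytes.

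The list had no single direction in fibroblasts. Fosb fell there by 1.29 on the log2 scale (adjusted p = 0.022), while Gadd45b (2.00), Ier3 (1.59) and Maff (1.45) rose. The median log2 fold change of the list was 0.41, beside 0 over all genes. In myoepithelial cells Ier3 (1.72) and Fosl1 (1.72) rose and Fosb (-1.30) and Btg2 (-1.14) fell, and in vascular endothelial cells Ier3 (2.00) and Gadd45b (1.78) rose while Fosb (-1.53) fell. The part of this RNA in the change of Klf2 and Klf4 was not tested.

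Within a mouse and type, cells were divided at the median share of immediate early UMIs and the members compared between the upper and lower cells, as a description. Klf2 was higher in the upper cells in 41 of 42 combinations of mouse and type, by 1.90- to 3.77-fold in the mean of each type, and the same count held for Klf4 (1.36- to 2.21-fold) and Klf6 (1.58- to 2.48-fold). Klf9 was higher in 38, Klf10 in 37, Klf13 in 31, Klf7 in 26, Klf3 in 25 and Klf5 in 24 of 42. Of the members that rose with age in vascular endothelial cells, Klf7 had 361 CPM in the upper and 377 CPM in the lower cells of that type, Klf5 6.37 and 6.80 CPM, and Klf9 556 and 457 CPM.

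**Figure D5:**
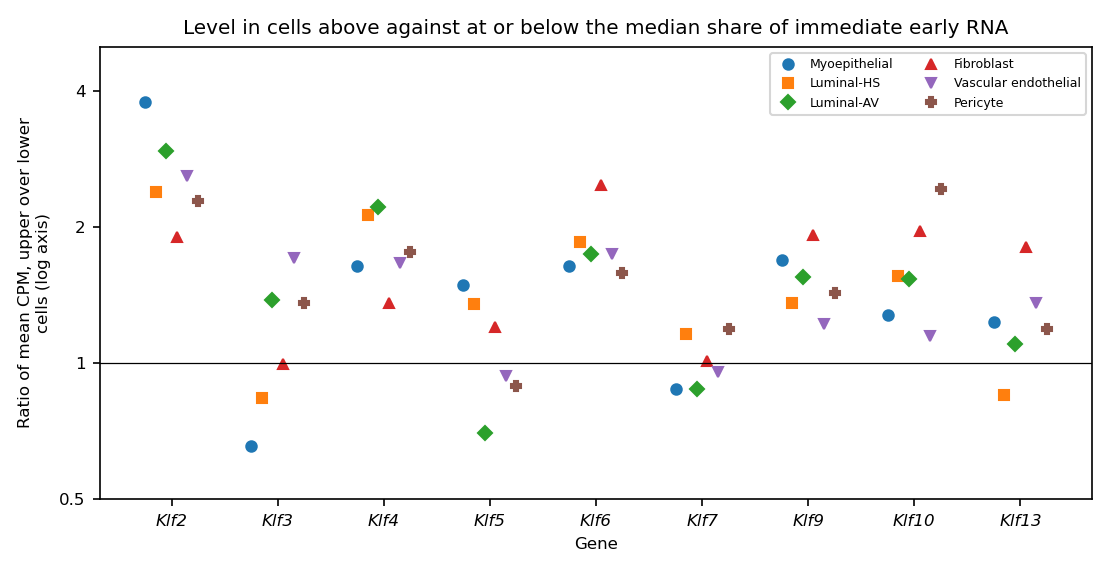
Ratio of the mean CPM over 7 mice in cells above the median share of immediate early RNA to that in the remaining cells (vertical, log axis) for each gene (horizontal axis) and 6 cell types (symbols). Klf2, Klf4, Klf6, Klf9 and Klf10 lie above 1 in all 6 types, and Klf3, Klf5, Klf7 and Klf13 fall on both sides of 1.

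The remaining family, 8 Klf and 9 Sp genes, was detected less, with 0 to 6 of the 17 tested per type. Klf11 rose in fibroblasts, from 12.1 to 16.6 CPM in young to 28.8 to 66.6 CPM in aged mice (1.63 ± 0.36, adjusted p = 0.027), and fell in vascular endothelial cells (-0.71 ± 0.23, adjusted p = 0.030), where Sp1, a ubiquitous GC-box binding factor, also fell (-0.76 ± 0.24, adjusted p = 0.030). These calls were 1 of 4 tested in fibroblasts and 2 of 6 in vascular endothelial cells, beside 2.07% higher and 12% lower of all genes. In HS, AV and myoepithelial cells edgeR and DESeq2 called 0 of 5, 6 and 4 tested, with 1, 2 and 0 at an unadjusted edgeR p under 0.05.

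Genes that Klf2 and Klf4 are known to raise or restrain in endothelium were listed from background knowledge. In vascular endothelial cells 10 of the 11 were tested, 5 rose and 1 fell (14.7% and 12% over all genes), and the median change was 0.48 beside -0.05 over all genes. Among the restrained genes, the adhesion molecules Sele (3.49 ± 0.23) and Vcam1 (2.90 ± 0.26) rose. Sele stood at 23.4 to 44.1 CPM in young and 307.4 to 412.3 CPM in aged mice. Among the raised genes, S1pr1, the receptor that holds the barrier, fell (-0.68 ± 0.13, adjusted p = 0.0014) and the quinone reductase Nqo1 rose (2.11 ± 0.23). S1pr1, the 1 gene that fell, lies outside the 4 largest changes and was named after its values were seen.

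In fibroblasts, where Klf2 and Klf4 fell, 7 of these 11 genes were tested and Vcam1 alone was called (2.07% of all genes were higher and 1.11% lower), rising from 31.7 to 48.9 CPM to 70.7 to 193.8 CPM (1.80 ± 0.31, adjusted p = 0.0063). In myoepithelial cells 3 of 5 tested rose, beside 12.8% of all genes, among them Vcam1 (3.93) and Cyp1b1 (1.52), in AV cells Vcam1 rose (3.11) and Ccl2 fell (-2.36) among 8, beside 2.90% higher and 3.26% lower of all genes. In pericytes S1pr1 (-1.19) and Vcam1 (-1.70) fell among 8, beside 4.61% lower. The endothelial Pecam1, Cdh5 and Sox17 in cells labelled pericyte summed to 1246 to 1365 CPM in young and 547.5 to 857.7 CPM in aged mice. Their part in the 2 falls was not tested. Of 13 upstream kinases, Mef2 factors and partner proteins, Mef2c alone was called, lower in myoepithelial cells (-1.89, adjusted p = 0.0024). There 12 of the 13 were tested, and 14.8% of all genes were lower.

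A list of 9 genes, glucocorticoid-responsive genes and the receptor gene Nr3c1, was drawn up because Klf9 is glucocorticoid-responsive. Of these, 8 were in the matrix. In vascular endothelial cells, where Klf9 rose, Tsc22d3 (0.91), Errfi1 (0.96) and Ddit4 (0.70) rose and Per1 (-0.60) fell among 8 tested. Of all genes there, 14.7% were higher and 12% lower. In fibroblasts edgeR and DESeq2 called 0 of 8, with 3 at an unadjusted p under 0.05. Ddit4 also rose in HS cells (1.10) with Sgk1 (1.04), among 8 tested, beside 3.93% of all genes. In myoepithelial cells Ddit4 rose (2.29) and Per1 fell (-1.33) among 6 tested, beside 12.8% higher and 14.8% lower of all genes. Errfi1 rose in pericytes (1.30) among 7 tested, beside 7.19% of all genes.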

How the data were processed

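Raw UMI counts per gene and cell were deposited by the authors from 10x 3-prime v2 libraries mapped to mm10 with Cell Ranger 2.0 (per the submitters' processing notes), with counts of UMIs and genes per cell, a fraction of mitochondrial UMIs and cell-cycle score columns, also made by the authors, that enter no result. The authors filtered cells, estimated doublets and named the cell types, which were used as deposited; no doublet caller was run here. No young cell's deposited UMI total exceeded its matrix sum, while in aged mice 2263 cells did so by up to 22. Lower deposited totals were not counted, and matrix sums were used. Counts were summed per mouse and type (at least 3 cells), filtered with filterByExpr and fitted with edgeR 4.0.16 (R 4.3.3). The mouse was the replicate. All 9 members entered each comparison, but the text names only some of them in HS, AV and vascular endothelial cells and pericytes. Of the lists at most 4 called genes per type with the largest change are named, apart from S1pr1. DESeq2 1.42.0 and further settings served as alternatives. Simulated counts with 200 altered genes were used to check each fit. Levels used Python 3.11.15. Positions are from GENCODE vM21 on GRCm38. Thinning drew 2000 UMIs per cell, and 0 cells were below that. The members and lists were chosen with earlier results of these data known. The values of 1 gene of the endothelial list are not reported here.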

Additional observations from a re-analysis of the deposited data

Results flagged for a closer look

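In HS cells Klf13 was 177.6 CPM in Aged A, far above the other 3 aged mice at 60.8 to 69.0 CPM, and in fibroblasts Klf2 was 386.3 CPM in Aged C, far below the other 3 at 605.4 to 640.9 CPM. Both mice stood apart from their group by Dixon's ratio (0.930 and 0.861), 2 of the 57 aged groups examined, where chance gives about 1 in 20. Aged C had 15 fibroblasts, and without that mouse Klf2 kept its call.

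The change with age differed among the 6 cell types for 6 members in the joint edgeR fit. The adjusted p was 1.7e-06 for Klf2, 3.6e-08 for Klf4, 0.00013 for Klf6, 8.6e-05 for Klf7, 0.045 for Klf5 and 0.046 for Klf9. Klf4 had a log2 fold change of -1.38 in fibroblasts and 0.88 in HS cells, and Klf7 of 0.71 in vascular endothelial cells and -0.40 in pericytes. Endothelial markers in cells labelled pericyte were also lower in aged mice, and their part in the Klf7 difference was not tested.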

How the results depend on the processing

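The 3 lower calls of members ranged from 2 to 4 and the 6 higher calls from 2 to 4 as each mouse was left out; with sums thinned to equal totals the higher calls were 2. Without Young A or Young B 2 higher calls were made, and without Young C or Aged C 3. The calls of Klf2 in fibroblasts (-2.42 to -2.05) and myoepithelial cells (-2.19 to -1.56), Klf6 in myoepithelial cells (1.02 to 1.42) and Klf7 in vascular endothelial cells (0.66 to 0.77) were made in every alternative. The other Klf and Sp genes went from 3 calls to 1 with DESeq2, 1 with the study's fold criterion in every pair of mice and 0 after thinning, and to between 0 and 3 with a mouse left out. Calls of regulators and targets went from 24 to 38 without a filter on low counts, which tests more genes, and lay between 22 and 26 with a mouse left out; those of immediate early genes went from 39 to between 26 and 43. The change with age differed among the 3 stromal types alone for 3 members, and for 4 to 6 with a mouse left out. The highest type held for 8 to 9 of 9 members with a mouse left out and for 7 over aged mice alone, where Klf2 moved to pericytes and Klf6 to Mb macrophages. Klf5 in vascular endothelial cells was not called by DESeq2 (adjusted p = 0.096) or without a filter (0.054), and Klf9 there was not called after thinning (0.55) or with the fold criterion in every pair. Klf4 in HS cells was not called after thinning (0.83, adjusted p = 0.054). After thinning Klf5 passed the filter in neither fibroblasts nor vascular endothelial cells. No direction turned in any alternative. For the other changes the cause was not tested.

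The label letters name different animals. Same-lettered mice did not deviate together in the 6 types of the joint fit (r of -0.19 to 0.08). In Mb macrophages and T and B cells, with few cells, r ran from -0.11 to 0.32. With a replicate block of the letters A, B and C, without Aged D, the lower calls were 2, the higher 5, and the other Klf and Sp genes 0; Klf4 in fibroblasts had an adjusted p of 0.059 and Klf5 there of 0.15. Depth limits Klf5 in stroma and the macrophage, T and B cell comparisons. P-values weigh the age difference against the variation among these mice, with dispersions moderated over genes, and do not cover other cohorts.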

Other observations

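Lymphatic endothelial cells, too few to test with 28 cells in all, had the highest Klf2 of the 13 types, 9830 ± 3900 CPM over the 5 mice with at least 3 such cells (SD; lowest 4490, highest 14500). Klf2 UMIs were found in 28 of the 28 cells. Klf4 was also higher there in the mean than in any other type, at 2317 ± 539 CPM, and Klf10 reached 241 ± 94.9 CPM. The 9 members together held 14600 ± 4570 CPM, against 3580 ± 566 CPM in vascular endothelial cells. Young A and C had 10810 and 4488 CPM of Klf2, and Aged B, C and D 11920, 14460 and 7465 CPM. The 23 immediate early genes summed to 49520 and 30620 CPM in Young A and C, and to 107300, 77420 and 58160 CPM in Aged B, C and D. The highest value in the tested types was 44500 CPM, in aged fibroblasts. The part of this RNA in the lymphatic levels was not tested.

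Ma macrophages, held by the 3 young mice apart from 1 cell of Aged A, had 1079 ± 424 CPM of Klf2, 1321 ± 300 of Klf4, 1437 ± 395 of Klf6 and 201 ± 47.4 CPM of Klf9 (SD, n = 3). The luminal cells that carry both HS and AV markers had 448 ± 120 CPM of Klf4 and 1003 ± 296 CPM of Klf6 (SD, n = 6). NK cells of 5 mice varied widely, with Klf9 from 0 to 801 CPM.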
